A study of Mus musculus with 9 samples.

Results

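Integrins and cadherins, the cell surface receptors that hold cells to the matrix and to each other, were followed in mouse granulosa cells through the first hours after an ovulatory stimulus. The members were chosen by name and gene type: protein-coding genes whose symbol is Itga or Itgb followed by a number or 1 letter, or Cdh followed by a number. This gave 49 of the 25059 gene identifiers in the tables, namely 18 for integrin alpha subunits, 8 for integrin beta subunits and 23 for cadherins. They carry 48 symbols, because Itgam stands on 2 identifiers. Symbols that only resemble these names, such as Itga2b, Itgb2l, Itgb1bp1 and the Cdhr genes, lie outside the rule.

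RNA-seq was carried out on granulosa cells (the somatic cells that enclose and feed the oocyte) from ovaries of Kunming mice at postnatal day 21. All mice had received 5 IU of PMSG, a gonadotropin that drives follicle growth, 48 h before the start of the time course. The 0 h group was taken at that point without hCG, and the 1 h and 6 h groups were taken 1 h and 6 h after 5 IU of hCG, a hormone that activates the LH receptor and so sets off ovulation. There were 3 libraries per time, 9 in all. Whether the 3 libraries of a group stem from different animals is not said in the labels, so the p-values measure library-to-library spread that may be technical. Controls kept without hCG for 1 h or 6 h were not analysed here.

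Each integrin is a pair of 1 alpha and 1 beta subunit that binds the extracellular matrix or ligands on other cells, and the alpha subunit largely sets which ligand is bound. The beta1 subunit pairs with many alpha subunits, among them the collagen receptors alpha1 and alpha2, the fibronectin receptor alpha5 and the laminin receptors alpha3 and alpha6. Classical cadherins bind the same cadherin on a neighbouring cell and are tied to the cytoskeleton through catenins. N-cadherin, the product of Cdh2, joins granulosa cells in the follicle. After the LH surge the granulosa layer loosens and the basement membrane that separates it from the theca is broken down.

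Values are FPKM, the number of sequenced fragments relative to transcript length and to all mapped fragments of the library, summed here over the rows of a gene. Libraries summed to between 491920 and 570986 FPKM, and between 13587 and 13862 genes reached 1 FPKM. Changes were tested with limma on log2(FPKM + 1) over the 14535 genes that reached 1 FPKM in at least 3 libraries, and a gene was called where its p, adjusted by Benjamini-Hochberg, was below 0.05. A log2 change on this scale understates the change of low genes. All 12 markers of granulosa cells in the list used were present at 1 FPKM or more, and their sum ranged from 12770 to 13520 FPKM at 0 h, 12590 to 18030 at 1 h and 4648 to 4933 at 6 h. In bulk samples, fewer cells of a type and less RNA per cell cannot be told apart.

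Of the 49 members, 23 passed the filter and were tested: 10 alpha subunits, 4 beta subunits and 9 cadherins. At 1 h, 1 member was called higher than at 0 h and none lower with limma, against 15.7% of all genes tested called in either direction (9.68% higher, 5.98% lower). At an unadjusted p below 0.05 there were 2 such members. At 6 h against 0 h, 12 members were called higher and 5 lower, against 56.6% of all genes tested called (28.8% higher, 27.9% lower). At 6 h against 1 h, 11 were called higher and 6 lower, against 53.5% of all genes tested (26.7% higher, 26.9% lower). The median log2 change of the tested members at 6 h against 0 h was 0.33, beside -0.0041 over all genes tested. Itga4, Itgad, Itgax and Cdh17 passed the filter only through their 6 h values and so had to be higher there, and these counts and medians include them. Leaving out a 6 h library takes them below the filter, and without replicate 2 of 6 h the counts against 0 h were 7 higher and 3 lower. Without replicate 1 of 0 h, 3 members were called lower. Against 1 h, 7, 6 and 6 were called higher at 6 h without replicate 1, 2 or 3 of 6 h.

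**Figure D1:**
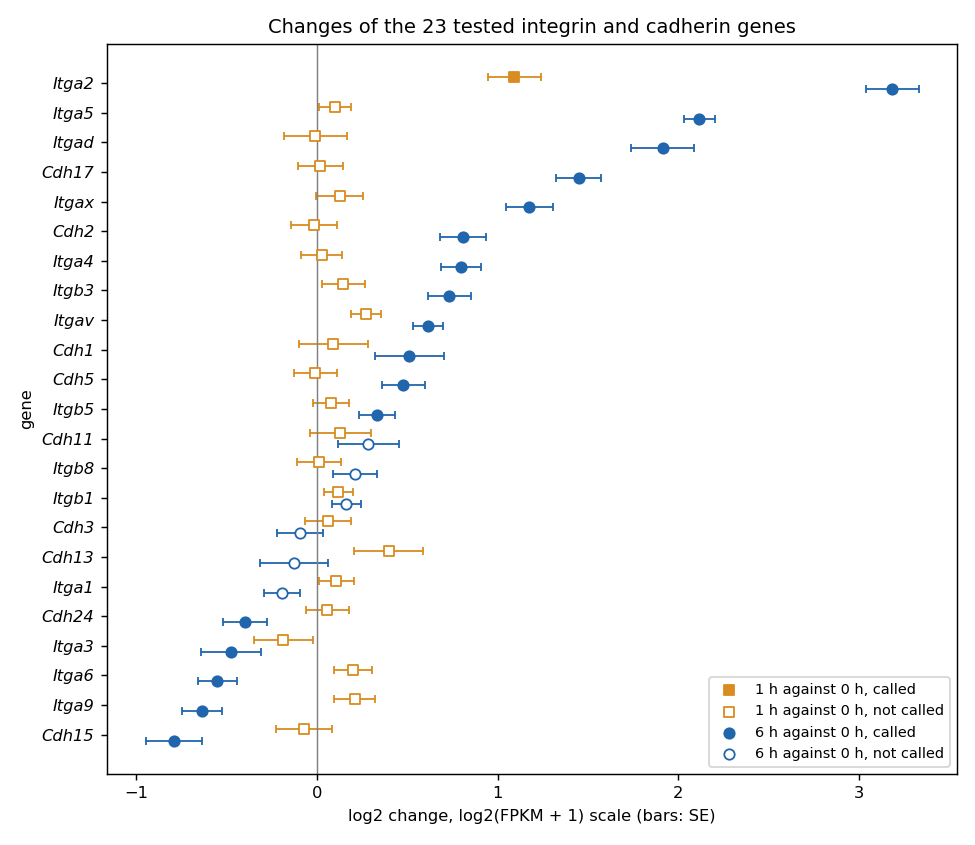
Log2 change on the log2(FPKM + 1) scale (x axis) of the 23 tested integrin and cadherin genes (y axis) at 1 h (squares) and 6 h (circles) against 0 h, with bars for the SE and filled symbols for genes called by limma. Itga2 has the only filled square, at 1.09, and also the rightmost circle, at 3.19, while 5 filled circles lie left of 0. The filled circles of Itga4, Itgad, Itgax and Cdh17 are descriptions only, because these genes passed the filter only through their 6 h values.

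Promoter windows are shown for the member with the largest change at 6 h against 0 h on the log2(FPKM + 1) scale (Itga2), its chromosomal neighbour, which was called higher in no comparison (Itga1), the member with the second largest change on that scale (Itga5), and the tested member whose window held an AP-1 match (Itgax). Each is the 250 bases before a RefSeq start in build GRCm38.p6, written 5′ to 3′ on the gene's strand. The windows are chr13:114932101-114932350 (minus strand) for Itga2, chr13:115101965-115102214 (minus) for Itga1, chr15:103366792-103367041 (minus) for Itga5 and chr7:128129300-128129549 (plus) for Itgax. Capitals mark matches to the motifs searched.
Itga2: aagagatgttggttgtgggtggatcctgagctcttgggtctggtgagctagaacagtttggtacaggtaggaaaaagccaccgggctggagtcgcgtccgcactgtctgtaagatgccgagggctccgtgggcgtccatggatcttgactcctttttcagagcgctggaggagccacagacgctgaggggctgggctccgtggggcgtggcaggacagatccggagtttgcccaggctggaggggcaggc
Itga1: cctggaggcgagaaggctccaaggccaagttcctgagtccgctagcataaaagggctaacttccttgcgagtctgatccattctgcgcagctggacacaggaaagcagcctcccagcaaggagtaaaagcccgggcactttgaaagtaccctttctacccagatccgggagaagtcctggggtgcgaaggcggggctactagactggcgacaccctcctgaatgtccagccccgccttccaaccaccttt
Itga5: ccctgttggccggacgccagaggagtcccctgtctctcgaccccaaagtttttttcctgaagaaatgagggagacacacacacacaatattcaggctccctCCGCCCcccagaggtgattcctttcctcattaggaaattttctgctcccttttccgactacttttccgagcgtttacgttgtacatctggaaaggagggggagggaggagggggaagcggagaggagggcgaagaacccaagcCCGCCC
Itgax: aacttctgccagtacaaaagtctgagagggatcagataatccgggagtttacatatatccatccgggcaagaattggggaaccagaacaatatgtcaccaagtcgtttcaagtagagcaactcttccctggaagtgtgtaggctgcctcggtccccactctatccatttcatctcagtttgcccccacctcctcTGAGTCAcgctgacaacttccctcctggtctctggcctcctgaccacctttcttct
Both strands were searched for the full cyclic AMP response element (TGACG followed directly by TCA), its first 5 bases alone (TGACG, which every full element also contains), an AP-1 motif (TGANTCA), a RUNX motif (TGTGGT) and a GC box (GGGCGG). The RUNX motif, the GC box and the 5-base element were added after the values were seen. The Itga2 and Itga1 windows held no match to any of them. In the Itga5 window, GC boxes began 149 and 6 bases before the start, and in the Itgax window the AP-1 match began 56 bases before it. RefSeq entries were matched for 13 of the 23 tested members, with 14 windows in all. No window of these held the full element, which 1.55% of 32851 mouse windows of the same length held. The 5-base element was in 2 of the 14 windows (Itga9 and Itgb1), against 17.8% of all windows, and AP-1 in 1 of 14, against 6.75%. RUNX was in 3 of 14, against 14.0%, and a GC box in 8 of 14, against 32.7%. Some windows lie inside the gene as annotated in GENCODE M21. The Itga9 window begins at chr9:118711442, while the gene begins at 118606690 (plus strand). An Itga3 window begins at chr11:95069199, inside the gene, which ends at 95076801 (minus strand). A further Itga3 window begins at 95076715, and both are in the GC box count. A match is a description of the letters, and no match says only that these letters are not in this window.

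Among the beta subunits, Itgb1 was the most abundant at every time and was not called in any comparison, while Itgb3 and Itgb5 rose by 6 h. Itgb1 encodes the beta1 subunit (chr8:128685654-128733200, GENCODE M21, build mm10, as for all gene positions below). It was at 159, 163 and 147 FPKM in the 3 libraries at 0 h, at 172, 163 and 173 at 1 h, and at 187, 183 and 155 at 6 h. The 6 h libraries overlapped with those of 0 h. The log2 change at 6 h against 0 h was 0.16, with a 95% interval of -0.02 to 0.34 (limma adjusted p = 0.115). It was called when replicate 3 of 6 h was left out (limma adjusted p = 0.0169).

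Itgb3, the beta3 subunit that pairs with alphav to bind ligands with an RGD sequence, was at 15.4, 17.8 and 13.4 FPKM at 0 h and at 20.0, 15.3 and 16.5 at 1 h. At 6 h it was at 28.1, 25.6 and 25.1 FPKM. All 6 h libraries were above all earlier ones, with a log2 change of 0.73 ± 0.12 (SE, n = 3 per group) against 0 h (limma adjusted p = 0.00056). Itgb5, the beta5 partner of alphav, was at 41.4, 43.9 and 43.7 FPKM at 0 h, at 41.4, 47.3 and 47.7 at 1 h, and at 47.0, 55.5 and 61.8 at 6 h. The 6 h libraries were all above those of 0 h but overlapped with those of 1 h. Its log2 change at 6 h was 0.33 ± 0.10 against 0 h (limma adjusted p = 0.0155) and 0.26 ± 0.10 against 1 h (0.0498). The first call was lost in 4 of 16 alternative settings and the second in 11. Itgb8, whose product pairs with alphav, was between 1.20 and 1.84 FPKM in the 9 libraries and was not called.

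The collagen receptor gene Itga2 was the only alpha subunit gene called higher at 1 h, and it was higher again at 6 h. Itga2 (ENSMUSG00000015533, chr13:114833081-114932100, minus strand) encodes the alpha2 subunit, which pairs with beta1. It was at 21.6, 22.4 and 22.6 FPKM at 0 h, at 46.2, 39.5 and 62.5 at 1 h, and at 215, 234 and 186 at 6 h. The 3 groups did not overlap. The mean rose 2.22-fold by 1 h, a log2 change of 1.09 ± 0.15 (limma adjusted p = 0.00092), and 9.52-fold by 6 h, a log2 change of 3.19 ± 0.15 (limma adjusted p = 1.8e-07). Between 1 h and 6 h it rose by a further 2.09 ± 0.15 on the log2 scale.

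Itga1, the other collagen-binding member with more than 5 FPKM, lies 21.0 kb from Itga2 on the same strand (chr13:114953096-115101964). It was at 5.05, 6.26 and 5.15 FPKM at 0 h, at 5.78, 6.32 and 5.82 at 1 h, and at 4.69, 4.51 and 4.75 at 6 h. Its 6 h libraries lay below those of both earlier groups, without overlap. The log2 change against 1 h was -0.30 ± 0.10 (limma adjusted p = 0.0259), a call lost in 4 of 16 alternatives, and against 0 h it was -0.19 (95% interval -0.42 to 0.03) and was not called. The ratio of Itga2 to Itga1 FPKM was 4.08 ± 0.44 (SD, n = 3) at 0 h, 8.33 ± 2.26 at 1 h and 45.6 ± 6.41 at 6 h. Exons of Itga1 share 685 bases with Gm49395 on the same strand. The remaining collagen receptor genes, Itga10 and Itga11, did not pass the filter.

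Itga5 and Itgav, whose products bind fibronectin and other RGD ligands, were called higher at 6 h than at 0 h. Itga5 (ENSMUSG00000000555, chr15:103344286-103366763, minus strand) encodes alpha5, the fibronectin receptor subunit that pairs with beta1. It was at 14.5, 15.4 and 12.9 FPKM at 0 h and at 16.3, 14.0 and 15.7 at 1 h. At 6 h it was at 61.9, 69.8 and 63.8 FPKM, well above every earlier library. The 1 h and 0 h libraries overlapped (log2 change 0.10, 95% interval -0.09 to 0.29), and by 6 h the mean was 4.57-fold that of 0 h, a log2 change of 2.12 ± 0.09 (limma adjusted p = 9.2e-08).

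Itgav encodes alphav, which pairs with several beta subunits and binds vitronectin, osteopontin and latent TGF-beta (chr2:83724397-83806916). It was the most abundant alpha subunit gene at 0 h and 1 h. Its values were 122, 121 and 125 FPKM at 0 h, 141, 137 and 168 at 1 h, and 181, 184 and 201 at 6 h. The 3 groups did not overlap. The change at 1 h was 0.27 ± 0.08 on the log2 scale and missed the threshold (limma adjusted p = 0.0530). It was called when replicate 2 of 1 h was left out (limma adjusted p = 0.0301). At 6 h the log2 change against 0 h was 0.62 ± 0.08 (limma adjusted p = 0.00017). At 6 h against 1 h it was 0.34, a call lost when only the most abundant row was used (limma adjusted p = 0.0890). Exons of Itgav share 634 bases with Gm13684 on the opposite strand. Itga8, a further RGD-binding subunit gene, averaged 0.758 to 0.900 FPKM per group and was not tested.

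Itga6 and Itga3, which encode laminin-binding subunits, were called lower at 6 h than at 0 h. Itga6, whose product pairs with beta1 or beta4, was at 24.0, 24.0 and 21.2 FPKM at 0 h and at 28.3, 24.6 and 27.0 at 1 h. At 6 h it was at 18.0, 13.3 and 15.1 FPKM, below every earlier library. The log2 change was -0.55 ± 0.11 against 0 h (limma adjusted p = 0.0016) and -0.75 ± 0.11 against 1 h (0.00028). The gene has 3 rows, of which the 2 main ones averaged 11.8 and 10.4 FPKM at 0 h and 9.34 and 5.52 at 6 h. With the most abundant row alone the fall from 0 h was not called (limma adjusted p = 0.113). The ratio of Itga5 to Itga6 FPKM was 0.618 ± 0.019 (SD, n = 3) at 0 h, 0.576 ± 0.007 at 1 h and 4.30 ± 0.91 at 6 h.

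Itga3, the alpha3 laminin receptor subunit, was at 13.8, 8.90 and 15.0 FPKM at 0 h, at 10.8, 12.0 and 9.33 at 1 h, and at 8.25, 8.74 and 8.63 at 6 h. The 0 h libraries were spread widely, and the lowest of them was close to the 6 h values. The log2 change at 6 h against 0 h was -0.48 ± 0.16 (limma adjusted p = 0.0320), and the call was lost in 8 of 16 alternatives. The second row of the gene was at 3.97, 0.363 and 5.57 FPKM at 0 h and at 2 or less in all later libraries. The beta4 gene Itgb4, whose product pairs with alpha6 in hemidesmosomes, averaged 0.269 to 0.362 FPKM and was not tested. Itga7, a laminin receptor subunit best known from muscle, was just outside the filter, at 1.12, 0.933 and 0.992 FPKM at 6 h and a mean of 0.287 at both earlier times.

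Itga9 and Itga4 encode related subunits that bind VCAM-1, and Itga9 was the more abundant. Itga9 was at 23.2, 27.8 and 22.8 FPKM at 0 h, at 28.5, 30.1 and 27.0 at 1 h, and at 13.7, 14.6 and 18.2 at 6 h. The 6 h libraries were below all earlier ones, with a log2 change of -0.64 ± 0.11 against 0 h (limma adjusted p = 0.00089) and -0.85 ± 0.11 against 1 h (0.00018). Itga4 was at 0.412, 0.475 and 0.464 FPKM at 0 h, at 0.443, 0.560 and 0.426 at 1 h, and at 1.54, 1.55 and 1.48 at 6 h. Itga4 passed the filter only through its 6 h libraries, which fixed a higher value there, so its log2 change of 0.80 ± 0.11 against 0 h is a description with no p. Exons of Itga4 share 1124 bases with Cerkl on the opposite strand, whose highest value was 0.328 FPKM.

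**Figure D2:**
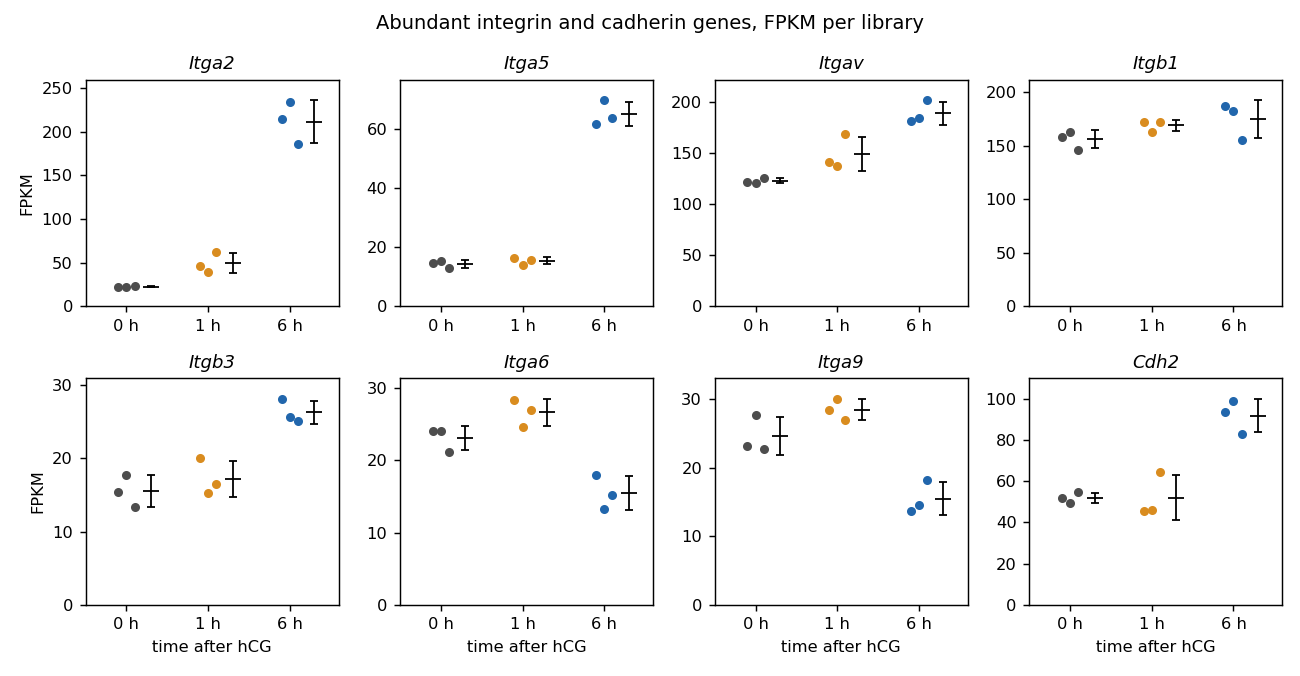
FPKM (y axes, from 0) of 8 abundant integrin and cadherin genes in each library at 0, 1 and 6 h after hCG (x axes). Points are libraries, and the black marks beside them give the mean and SD (n = 3). Itga2 and Itga5 at 6 h lie far above all earlier libraries, Itga6 and Itga9 at 6 h lie below them, and Itgb1 overlaps between 0 h and 6 h.

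A pair of subunit genes best known from leukocytes reached 1 FPKM only in the 6 h libraries. Itgad and Itgax encode the alphaD and alphaX subunits, which pair with beta2, and lie 3.72 kb apart on the plus strand of chromosome 7. Itgad was listed at 0, 0.0628 and 0 FPKM at 0 h, at 0.0202, 0 and 0.0217 at 1 h, and at 1.92, 3.77 and 3.09 at 6 h. The log2 change against 0 h was 1.92 ± 0.17. No fold is given, because several earlier libraries are listed at 0. Itgax was at 0.278, 0.149 and 0.155 FPKM at 0 h, at 0.300, 0.381 and 0.226 at 1 h, and at 1.38, 1.88 and 1.86 at 6 h. Its log2 change against 0 h was 1.18 ± 0.13. Both genes passed the filter only through their 6 h libraries, so these changes are given as descriptions with no p.

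The other genes of the beta2 family stayed under the filter. Itgb2, the obligate beta partner of these subunits, was at 0.350, 0.477 and 0.676 FPKM at 0 h, at 0.829, 1.05 and 0.718 at 1 h, and at 1.06, 0.568 and 0.259 at 6 h. Its 6 h libraries spanned the whole range of the 0 h libraries, and it reached 1 FPKM in 2 libraries. Itgam, whose main identifier lies just before Itgax on the same strand, averaged 0.496, 0.816 and 0.423 FPKM at 0, 1 and 6 h, and Itgal averaged 0.256, 0.228 and 0.203. The second identifier of Itgam overlaps the first and averaged at most 0.110 FPKM in a group.

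No tested marker of leukocytes was called higher alongside. Of 15 such genes, 9 were tested, and at 6 h against 0 h none was called higher and 1, Lyz2, was called lower with limma (none without replicate 2 of 0 h or 1 of 6 h). Their summed level was 23.1 to 41.3 FPKM at 0 h, 27.4 to 47.6 at 1 h and 21.4 to 31.2 at 6 h. Over all genes tested, 28.8% were called higher and 27.9% lower at 6 h against 0 h. Ptprc, which encodes the pan-leukocyte antigen CD45, averaged 0.670, 0.858 and 0.551 FPKM, and no marker of the list was at 0 in all libraries. Exons of Itgad share 388 bases with 4931431B13Rik, 330 with the pseudogene Gm17831, 102 with Gm39091 and 70 with Cox6a2. Cox6a2, on the opposite strand, reached 5.79 FPKM in 1 library of 6 h. Whether the libraries kept strand is not given in the sources used here, so shared reads cannot be told apart.

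The makeup of the alpha and beta subunit RNA is described by sums and shares, with no test. The summed alpha FPKM was 228.7 ± 1.20 (SD, n = 3) at 0 h, 290.1 ± 26.6 at 1 h and 519.5 ± 17.4 at 6 h. The summed beta FPKM was 216.9 ± 10.3, 234.8 ± 5.04 and 259.2 ± 12.9. At 6 h the alpha sum was 2.27-fold and the beta sum 1.19-fold that of 0 h.

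Itga2 made up 9.71% ± 0.20 of the alpha sum at 0 h, 16.9% ± 2.45 at 1 h and 40.6% ± 3.60 at 6 h. Itgav went from 53.6% ± 1.19 at 0 h to 36.3% ± 2.94 at 6 h, although its own FPKM rose. Itga5 went from 6.23% ± 0.52 to 12.5% ± 0.42. The shares of Itga6 and Itga9 were 10.1% ± 0.71 and 10.8% ± 1.16 at 0 h and both 2.99% at 6 h. In 2 of the 3 libraries of 6 h the Itga2 share was above that of Itgav, and in replicate 3 it was below it (36.6% against 39.6%). Set against their common partner, the ratio of Itga2 to Itgb1 FPKM was 0.143 ± 0.010 at 0 h and 1.21 ± 0.07 at 6 h, and that of Itga5 to Itgb1 was 0.091 ± 0.003 and 0.374 ± 0.041. The ratio of Itgav to the sum of Itgb3 and Itgb5 was 2.10 ± 0.12 at 0 h and 2.33 ± 0.07 at 6 h. Itgb1 held 71.9% ± 0.93 of the beta sum at 0 h and 67.5% ± 3.57 at 6 h.

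**Figure D3:**
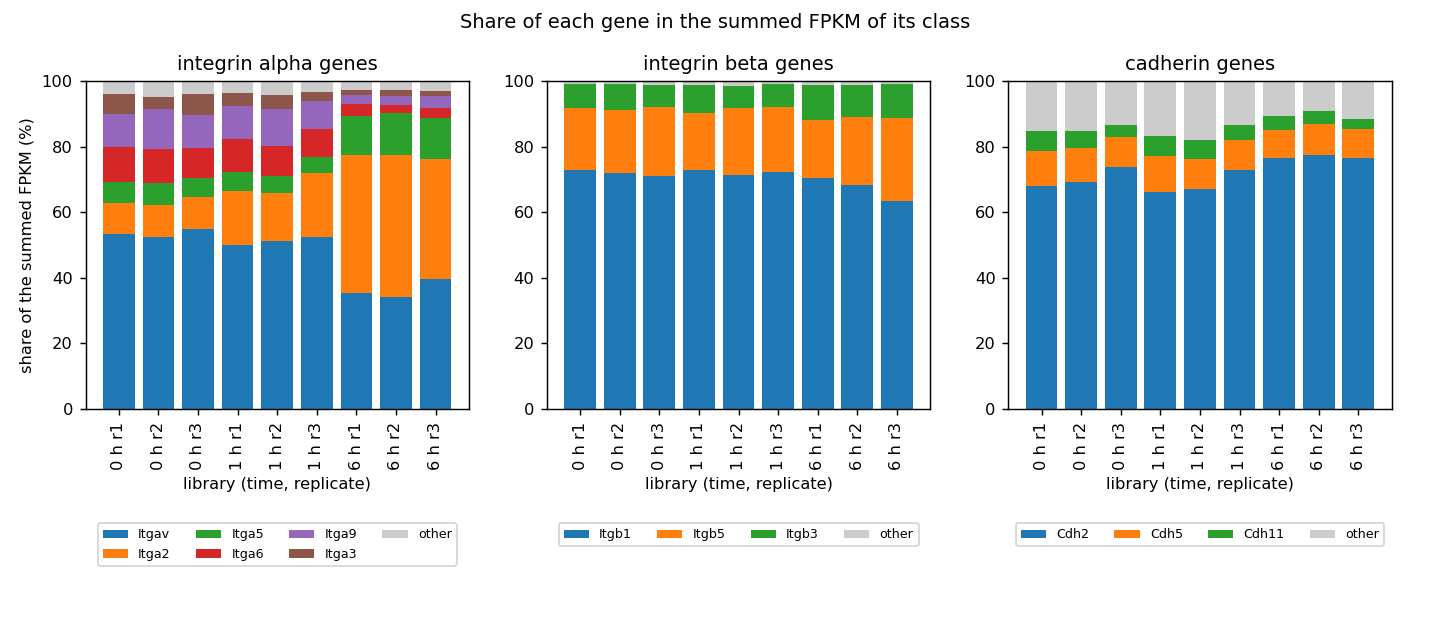
Share of each gene in the summed FPKM of its class, in percent (y axes), in each of the 9 libraries (x axes, time and replicate), for integrin alpha, integrin beta and cadherin genes. Itga2 widens from 9.90% or less of the alpha sum in each library of 0 h to 36.6% or more in each library of 6 h, while Itgb1 and Cdh2 stay the largest parts of their classes.

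Among the cadherins, N-cadherin was the dominant gene at all times and rose by 6 h. Cdh2 (ENSMUSG00000024304) was at 51.7, 49.6 and 54.5 FPKM at 0 h, at 45.5, 46.1 and 64.5 at 1 h, and at 93.5, 99.0 and 83.1 at 6 h. The 1 h libraries straddled those of 0 h, and all 6 h libraries were above both groups. The mean at 6 h was 1.77-fold that of 0 h, a log2 change of 0.81 ± 0.13 (limma adjusted p = 0.000435). Both of its rows were higher, from 34.0 to 57.9 and from 18.0 to 33.9 FPKM. Cdh2 made up 70.3% ± 3.10 of the summed cadherin FPKM at 0 h and 76.7% ± 0.52 at 6 h, and this sum was 73.9 ± 2.14, 75.4 ± 11.4 and 119.7 ± 9.88 FPKM at 0, 1 and 6 h.

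The other classical type I cadherins were low. Cdh1, which encodes E-cadherin, was at 1.71, 0.747 and 0.750 FPKM at 0 h, at 1.31, 0.976 and 1.20 at 1 h, and at 1.45, 2.05 and 2.22 at 6 h. The 6 h and 0 h libraries overlapped through replicate 1 of 0 h. The log2 change at 6 h against 0 h was 0.51 ± 0.19 (limma adjusted p = 0.0425), and the call was lost in 11 of 16 alternatives. Of 10 oocyte markers, a cell type that also carries E-cadherin, 9 were tested and 8 were called higher at 6 h than at 0 h with limma (5 without replicate 2 or 3 of 0 h or replicate 3 of 6 h). Their sum was 41.7 to 62.8 FPKM at 0 h, 52.7 to 65.8 at 1 h and 70.9 to 105.9 at 6 h, and none was at 0 in all libraries. Over all genes tested, 28.8% were called higher and 27.9% lower at 6 h against 0 h. Dazl, the tested oocyte marker not called higher, averaged 3.14 FPKM at 0 h, 3.23 at 1 h and 1.83 at 6 h. It was not called at 6 h against 0 h (limma adjusted p = 0.0648). Against 1 h it was called lower (0.0462), a call lost in several alternatives. With the replicate block, scaling to a common FPKM sum or without replicate 2 of 0 h, 1 oocyte marker was called lower at 6 h against 0 h. The part of oocytes in the Cdh1 value was not tested. Cdh3, the P-cadherin gene 46.1 kb before Cdh1 on chromosome 8, was between 1.05 and 1.61 FPKM in all libraries and was not called. Cdh15, M-cadherin, was at 1.97, 1.96 and 1.33 FPKM at 0 h, at 1.60, 1.88 and 1.36 at 1 h, and at 0.842, 0.488 and 0.435 at 6 h. It was lower at 6 h than in every earlier library (log2 change -0.79 ± 0.15 against 0 h, limma adjusted p = 0.0017).

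The type II cadherins moved in different directions. Cdh5 encodes VE-cadherin, the cadherin of endothelial junctions, and was at 8.11, 7.61 and 6.65 FPKM at 0 h, at 7.75, 6.34 and 8.19 at 1 h, and at 10.6, 12.1 and 9.73 at 6 h. Each 6 h library was above all earlier ones, with a log2 change of 0.48 ± 0.12 against 0 h (limma adjusted p = 0.0063). Of 10 endothelial markers, 9 were tested, and 3 of these (Kdr, Cldn5 and Flt1) were called higher at 6 h than at 0 h and none lower with limma (5 higher without replicate 3 of 6 h). Without replicate 1 of 6 h, 1 marker was called lower. Pecam1 averaged 3.30 FPKM at 0 h and 4.13 at 6 h and was not called, and no marker of the list was at 0 in all libraries. Egfl7 averaged 9.04 FPKM at 0 h and 6.58 at 6 h and was not called. The summed level of the list was 24.1 to 32.2 FPKM at 0 h, 26.3 to 32.2 at 1 h and 25.1 to 40.4 at 6 h. Over all genes tested, 28.8% were called higher and 27.9% lower at 6 h against 0 h. The part of endothelial cells in the Cdh5 value was not tested.

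Cdh24 was at 3.99, 3.87 and 3.62 FPKM at 0 h, at 3.73, 3.70 and 4.70 at 1 h, and at 2.91, 2.24 and 2.87 at 6 h. Its 6 h libraries were below all others, with log2 changes of -0.40 ± 0.12 against 0 h (limma adjusted p = 0.0175) and -0.46 ± 0.12 against 1 h (0.0099). The call against 0 h was lost in 2 of 16 alternatives. Cdh11, a cadherin of mesenchymal cells, was between 2.82 and 5.31 FPKM in the 9 libraries, with overlapping groups, and was not called. Without replicate 3 of 6 h it was called higher at 6 h against 0 h (limma adjusted p = 0.0386).

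Cdh13 and Cdh17 are atypical cadherins, and the first is held to the membrane by a lipid anchor. Cdh13 was at 1.29, 1.76 and 1.93 FPKM at 0 h, at 2.16, 3.30 and 2.12 at 1 h, and at 2.04, 1.01 and 1.34 at 6 h. The 1 h libraries were above both other groups. The fall from 1 h to 6 h was -0.52 ± 0.19 on the log2 scale (limma adjusted p = 0.0401), lost in 8 of 16 alternatives, and the difference between 1 h and 0 h was not called. Cdh17, known as liver-intestine cadherin, was at 0.204, 0.0878 and 0.137 FPKM at 0 h, at 0.113, 0.187 and 0.170 at 1 h, and at 2.34, 2.21 and 1.82 at 6 h. The log2 change against 0 h was 1.45 ± 0.12, given with no p because Cdh17 passed the filter only through its 6 h libraries.

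**Figure D4:**
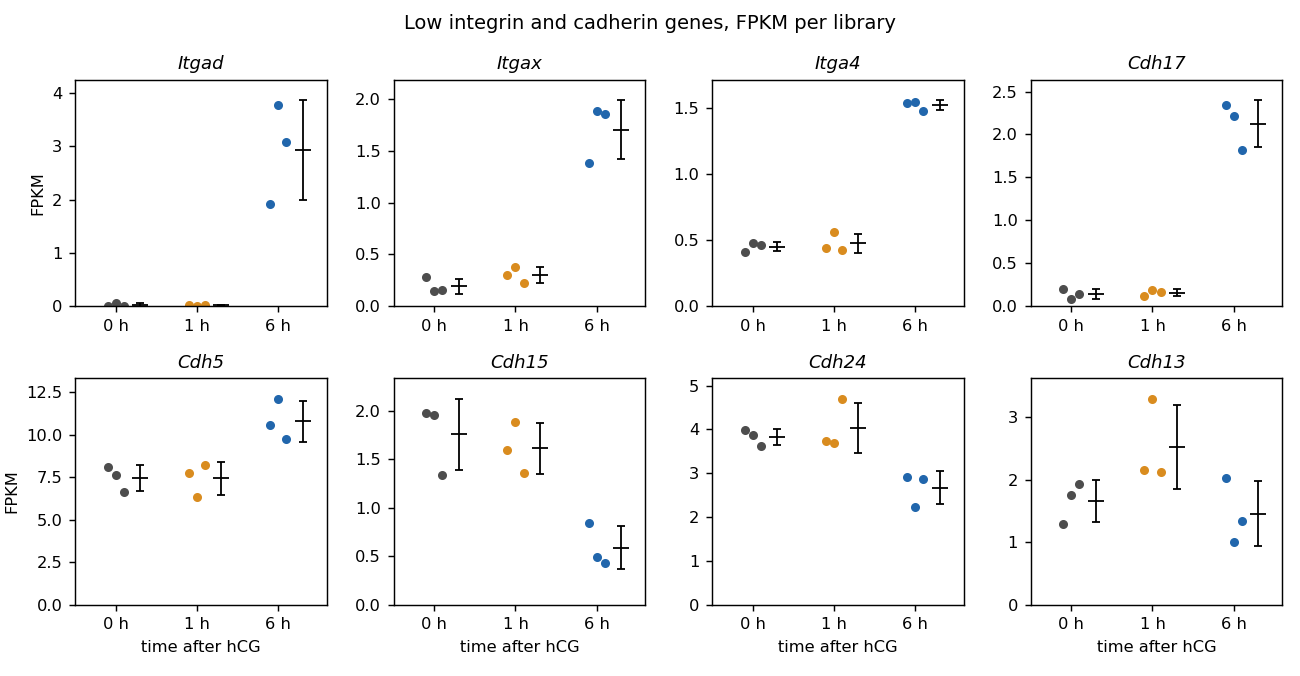
FPKM (y axes, from 0) of 8 less abundant integrin and cadherin genes in each library at 0, 1 and 6 h after hCG (x axes). Points are libraries, and the black marks give the mean and SD (n = 3). Itgad, Itgax, Itga4 and Cdh17 are near 0 or below 0.6 FPKM until 1 h and at 1.38 FPKM or more in every 6 h library, which is also how they passed the filter.

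The 26 members that did not pass the filter were 8 alpha subunits, 4 beta subunits and 14 cadherins. Their highest value in any library was 1.23 FPKM, for Itga11, and Cdh16 was listed at 0 in all 9. Cdh18 lay just outside the filter, at 0.873, 1.01 and 1.04 FPKM at 6 h beside means of 0.149 and 0.134 at 0 h and 1 h. Without a filter, limma called Cdh6, Cdh9, Cdh12, Cdh18, Itga7 and Itgb6 higher and Itga11 lower at 6 h against 0 h. Among these, the 6 h means were 0.975 FPKM for Cdh18, 1.01 for Itga7 and at most 0.593 for the others.

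Genes for proteins that couple integrins to actin were largely called higher at 6 h than at 0 h. In a list of 29 adaptors and activators, 25 were tested. With limma, 7 were called higher at 1 h against 0 h and none lower, 17 higher and 5 lower at 6 h against 0 h, and 12 higher and 4 lower at 6 h against 1 h. Over all genes tested, 9.68% were called higher and 5.98% lower at 1 h against 0 h. At 6 h these shares were 28.8% and 27.9% against 0 h, and 26.7% and 26.9% against 1 h. The median log2 change of the list at 6 h against 0 h was 0.46, beside -0.0041 over all genes tested. Vcl, vinculin, averaged 32.0 FPKM at 0 h, 48.7 at 1 h and 95.7 at 6 h, with log2 changes of 0.59 and 1.55 against 0 h. Nedd9, a docking protein of focal adhesions, averaged 20.9, 48.0 and 58.3 FPKM and so had most of its rise by 1 h. Actn1, alpha-actinin-1, averaged 31.3, 43.3 and 75.6 FPKM. Tln1, the talin that binds beta tails and activates integrins, was named after its values were seen: it averaged 48.7, 62.3 and 97.6 FPKM and was called higher at 6 h than at 0 h (log2 change 0.99). Tln2, the other talin gene, averaged 3.51, 4.12 and 1.37 FPKM and was called lower (log2 change -0.94). The other adaptors called lower there were Parvb, Lims2, Fyn and Rsu1. The 1 h count was 2 with quantile normalization and 3 when libraries were scaled to a common FPKM sum, and it was 4 without replicate 1 or 3 of 0 h or replicate 1 of 1 h.

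Of 6 integrin inhibitors, 5 were tested, and 1 was called higher at 1 h against 0 h, 3 higher at 6 h against 0 h and 3 higher at 6 h against 1 h. The shares of all genes tested called higher in these comparisons were 9.68%, 28.8% and 26.7%. No inhibitor was called lower in these fits. After scaling to a common FPKM sum, 1 was called lower at 1 h against 0 h. With the most abundant row only, 1 was called lower at 6 h against 1 h. Itgb1bp1, also called ICAP-1, binds the beta1 tail and competes with its activators. It was at 10.4, 10.9 and 9.13 FPKM at 0 h, at 20.7, 21.1 and 21.5 at 1 h, and at 66.2, 81.2 and 73.0 at 6 h. The 3 groups did not overlap, with log2 changes of 0.99 at 1 h (limma adjusted p = 7.3e-05) and 2.74 at 6 h (2.5e-08) against 0 h. Its target Itgb1 was not called in either comparison. Dok1, an adaptor that also binds beta tails, averaged 5.18 FPKM at 0 h and 11.2 at 6 h. Flna, filamin A, averaged 105 and 138 FPKM and was called higher at 6 h, but its log2 change against 0 h was -0.07 when only its most abundant row was used. Its call at 6 h against 1 h (limma adjusted p = 0.0478) was lost in several alternatives, among them the replicate block (0.0559). With the most abundant row only, Flna was called lower there (log2 change -0.32, limma adjusted p = 0.0159).

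Genes for ligands of integrins split between both directions. Of 32 names, 30 were in the tables and 25 were tested. The names not found, Ccn1 and Ccn2, are other names of Cyr61 and Ctgf, which are in the list and were found. With limma, 1 was called higher at 1 h against 0 h and none lower, 11 higher and 8 lower at 6 h against 0 h, and 9 higher and 11 lower at 6 h against 1 h. The count at 1 h was 2 to 4 without replicate 2 or 3 of 0 h, replicate 2 of 1 h or replicate 3 of 6 h. Of all genes tested, 9.68% were called higher and 5.98% lower at 1 h against 0 h. At 6 h these shares were 28.8% and 27.9% against 0 h, and 26.7% and 26.9% against 1 h. Spp1, osteopontin, a ligand of alphav integrins, averaged 29.0 ± 15.0 FPKM (SD, n = 3) at 0 h, 24.6 at 1 h and 394 ± 57.4 at 6 h (log2 change 3.87 against 0 h). Vcam1, a ligand of alpha4 and alpha9 integrins, averaged 6.65 FPKM at 0 h, 9.85 at 1 h and 2.06 at 6 h. Lama4, a laminin chain, averaged 28.6, 30.0 and 9.09 FPKM and was lower at 6 h than in every earlier library. Further ligands of the alpha2 and alpha5 receptors were named after their values were seen. Fibronectin, Fn1, averaged 15.4 FPKM at 0 h and 29.8 at 6 h, a call lost when only its most abundant row was used. The type IV collagen chains Col4a1 and Col4a2 averaged 69.3 and 46.4 FPKM at 0 h and 175 and 111 at 6 h, and both were called higher. Of the type I collagen genes, Col1a1 averaged 20.2 FPKM at 0 h and 16.7 at 6 h and was not called, but was called lower without replicate 3 of 0 h (limma adjusted p = 0.0099). Col1a2 averaged 30.0, 32.1 and 21.3 FPKM at 0, 1 and 6 h and was called lower at 6 h against 1 h (limma adjusted p = 0.0271), a call lost without replicate 1 or 3 of 1 h or replicate 3 of 6 h. Against 0 h it was called lower with quantile normalization, after scaling to a common FPKM sum, or without replicate 3 of 0 h (limma adjusted p = 0.0354, 0.0318 and 0.0034).

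Genes for the catenins and other proteins that tie cadherins to actin were called in both directions. Of 17 names of cadherin partners, 16 were in the tables and 14 were tested. The name not found, Afdn, is another name of Mllt4, which is in the list and was found. With limma, 3 were called higher at 1 h against 0 h, 4 higher and 3 lower at 6 h against 0 h, and 3 higher and 3 lower at 6 h against 1 h. The last count of higher genes was 1 without replicate 1 of 1 h or replicate 2 or 3 of 6 h. With quantile normalization or scaling to a common FPKM sum, 5 were called lower at 6 h against 0 h. At 1 h against 0 h, 2 were called lower after scaling to a common FPKM sum and 1 without replicate 2 of 1 h. Ctnnd1, named after its values were seen, was among those called higher at 1 h. That call was lost in many alternatives, among them quantile normalization (log2 change 0.03). The median log2 change at 6 h against 0 h was 0.04, beside -0.0041 over all genes tested. Among all genes tested, 9.68% were called higher at 1 h against 0 h. At 6 h, 28.8% were called higher and 27.9% lower against 0 h, and 26.7% and 26.9% against 1 h. Ctnna2, the alpha-catenin of neurons, was at 9.39, 10.7 and 9.94 FPKM at 0 h, at 10.8, 7.08 and 9.71 at 1 h, and at 2.80, 1.52 and 1.42 at 6 h. Its 6 h libraries were below all others, with a log2 change of -1.95 against 0 h. Vcl is also in this list, and Ctnnal1, an alpha-catenin-like protein, averaged 8.77 FPKM at 0 h, 16.3 at 1 h and 16.0 at 6 h. Ctnnb1, beta-catenin, named after its values were seen, averaged 166 FPKM at 0 h, 181 at 1 h and 154 at 6 h. It was not called at 6 h against 0 h, but was called lower there with quantile normalization (limma adjusted p = 0.0099) or after scaling to a common FPKM sum (0.0238).

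Of 12 genes that process cadherins or repress their transcription, 11 were tested. With limma, 2 were called higher at 1 h against 0 h, 5 higher and 4 lower at 6 h against 0 h, and 3 higher and 5 lower at 6 h against 1 h. The 5 higher at 6 h against 0 h became 2 without replicate 2 of 6 h and 3 without replicate 3 of 0 h or 6 h. Among all genes tested, 9.68% were called higher at 1 h against 0 h. At 6 h, 28.8% were called higher and 27.9% lower against 0 h, and 26.7% and 26.9% against 1 h. Twist1, a repressor of Cdh1 transcription in other systems, averaged 0.448 FPKM at 0 h, 0.595 at 1 h and 6.14 at 6 h (log2 change 2.27 against 0 h). With such means at 0 h and 1 h it could not pass the filter without 6 h libraries, which favours a higher value there. Its change is therefore a description with no p, and the count of 5 higher includes it. Furin, the convertase that cuts the precursors of cadherins and of several alpha subunits, averaged 25.7, 28.0 and 89.8 FPKM. Zeb2, a further repressor of Cdh1, averaged 106 FPKM at 0 h, 276 at 1 h and 140 at 6 h. Its value at 6 h was called higher than at 0 h, but its log2 change was -0.37 when only its most abundant row was used. The call was also lost with quantile normalization (limma adjusted p = 0.0515) and without replicate 2 or 3 of 0 h or replicate 1 or 2 of 6 h.

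Outside the named cadherins, 9 of 24 genes of desmosomes and large cadherins were tested. With limma, 1 was called higher at 1 h against 0 h, 2 higher and 3 lower at 6 h against 0 h, and 2 higher and 3 lower at 6 h against 1 h. Without replicate 3 of 6 h, 5 were lower at 6 h against 0 h. Among all genes tested, 9.68% were called higher at 1 h against 0 h. At 6 h, 28.8% were called higher and 27.9% lower against 0 h, and 26.7% and 26.9% against 1 h. Dsp, desmoplakin, the plaque protein of desmosomes, averaged 38.6 FPKM at 0 h, 29.9 at 1 h and 9.36 at 6 h, a log2 change of -1.98. Fat1, an atypical giant cadherin, averaged 224 FPKM at 0 h, 380 at 1 h and 84.5 at 6 h, and was called higher at 1 h and lower at 6 h. Dchs1, a partner of Fat4 in cell contacts, averaged 1.44, 1.48 and 5.93 FPKM.

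**Figure D5:**
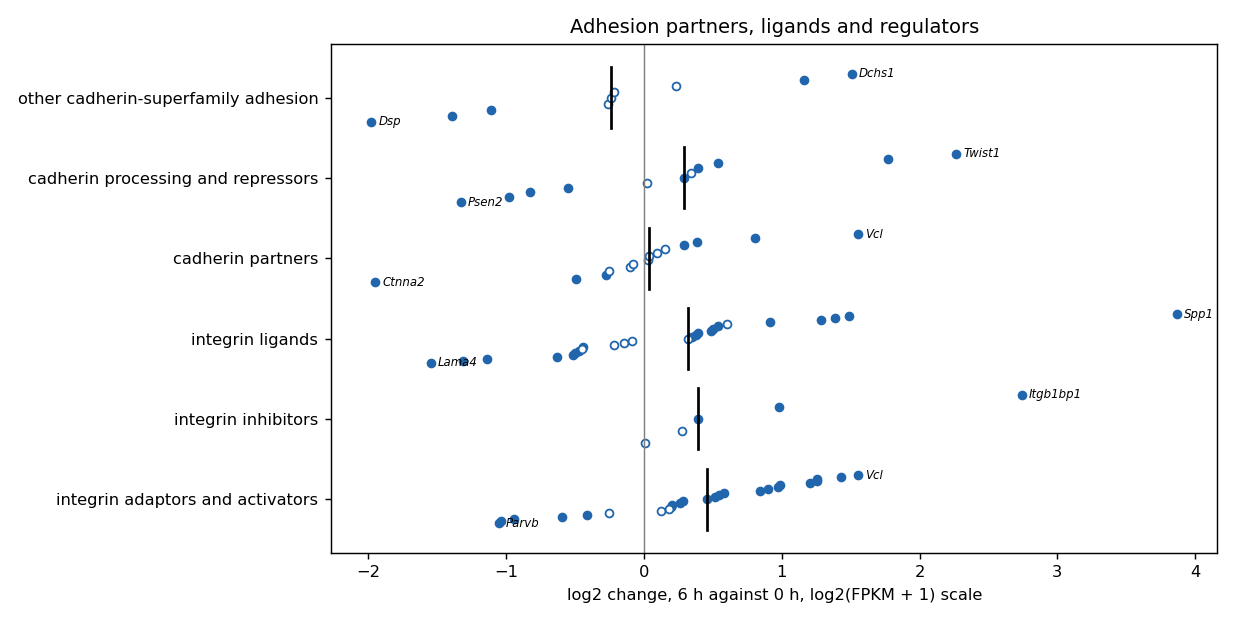
Log2 change at 6 h against 0 h on the log2(FPKM + 1) scale (x axis) of the tested genes of 6 lists of adhesion partners (y axis). Filled points were called by limma, open points were not, and black lines mark the median of each list. The adaptors have their median at 0.46 with Vcl rightmost, and Spp1 at 3.87 is the rightmost point of all. The filled point of Twist1 is a description only, because it could not pass the filter without 6 h libraries.

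Markers of other cell types also differed between the times. Over all genes tested, 28.8% were called higher and 27.9% lower at 6 h against 0 h. Between 0 h and 6 h, limma called 11 of 12 granulosa markers and 5 of 9 markers of theca and stroma lower and none higher, and 2 of 4 tested erythroid markers lower (1 without replicate 2 or 3 of 0 h, 2 of 1 h, or 1 or 3 of 6 h). Of 5 tested surface epithelium markers 1 was called higher and 1 lower (none lower without replicate 1 or 2 of 0 h, 1 of 1 h, or 2 or 3 of 6 h), and of the platelet markers 2 were tested and none was called. The summed theca and stroma markers were 195.7 to 293.2 FPKM at 0 h, 246.3 to 387.9 at 1 h and 101.5 to 121.9 at 6 h. At 1 h against 0 h, none of the lists of other cell types had a called gene with all libraries, against 15.7% of all genes tested called. Without replicate 2 of 0 h, 1 leukocyte marker was called higher, and without replicate 1 or 2 of 1 h, 1 theca and stroma marker was called higher (and 1 lower without replicate 2 of 1 h). The part of these cell types in the values of Itga3, Itga6, Itga9, Cdh11 and Cdh24 was not tested.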

How the data were processed

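RNA-seq of granulosa cells was analysed in 9 libraries, 3 each at 0, 1 and 6 h after hCG, grouped by their titles. The authors deposited FPKM per transcript row, 54759 rows per library. The submitters' processing notes name HISAT2 2.0.5 and mm10. Which program and annotation gave the FPKM is not stated in any source used here. Between 9364 and 9682 rows per library lay above 0 and below 0.001 FPKM, so whole reads cannot be worked back from them. Depth is therefore unknown, counting intervals are left out, and a value of exactly 0 can stand for an estimate that failed.

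Rows were summed per gene identifier. The filter was 1 FPKM in at least 3 libraries, which 14535 genes passed. Their log2(FPKM + 1) values went into limma 3.58.1 (R 4.3.3, trend option), where all 9 libraries shared 1 fit of the group means (6 residual degrees of freedom). Of the planned tests, the one for FPKM was used. The procedure was tested on simulated data in which only the more abundant genes were given known, large changes. That test does not cover low members or small changes. Gene positions are from GENCODE M21 and promoter windows from RefSeq.

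The members, lists and rules were chosen with earlier results of these data known. Values per library were given for each member called in any comparison or tested and averaging 5 FPKM or more in a group. From each list of related genes up to 3 called genes with the largest absolute change were named, and others are marked as chosen after their values were seen. The alternatives were another pseudocount (0.1), no filter, 2 other normalizations, the most abundant row only, only the 2 groups compared, the replicate number as a block, and leaving out each library. Those for the related and marker lists and for the shares were added after seeing the data.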

Additional observations from a re-analysis of the deposited data

How the results depend on the processing

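Of 35 called changes of single members, 26 kept their call in every one of the 16 alternatives in which the gene was tested, and none changed direction. The 26 include the calls of Itga4, Itgad, Itgax and Cdh17 at 6 h against 0 h and against 1 h. The filter fixed the direction of these calls, so their being kept says nothing of how firm they are. At 1 h against 0 h, 1 member was called higher, and 2 with the replicate block (Itgav added, limma adjusted p = 0.0384); leaving out each replicate in turn gave 1 to 2, with Itgav added without replicate 2 of 1 h. At 6 h against 0 h, leaving out each replicate gave 7 to 12 members higher, against 12, and 3 to 5 lower, against 5 (the fewest higher without replicate 2 of 6 h); the most abundant row alone gave 3 lower. At 6 h against 1 h it gave 6 to 11 members higher, against 11. When a 6 h library was left out, Itga4, Itgad, Itgax and Cdh17 no longer reached the filter and were not tested, which accounts for 4 of the lost calls. Without the filter, 17 were called higher at 6 h against 0 h.

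Whether the replicate numbers pair the libraries is not said in the labels. Deviations of libraries with the same number correlated between -0.08 and 0.15, which cannot settle it. With the block, 11 members were called higher and 4 lower at 6 h against 0 h, and 11 higher and 5 lower at 6 h against 1 h. The block also gave 1 leukocyte marker called higher at 1 h against 0 h, against none, and 1 cadherin partner higher at 6 h against 1 h, against 3, and Col1a2 called lower at 6 h against 0 h (limma adjusted p = 0.0457). Scaling every library to a common FPKM sum shifted the median log2 change of all genes by -0.15 at 1 h and by -0.09 at 6 h against 0 h, and turned the calls over all genes at 1 h to 1002 higher and 2634 lower, from 1407 and 869. Quantile normalization gave 1142 and 1252. Itga2 stayed the only member called at 1 h under both. With the filter, normalizations and replicates changed in turn, the counts of the related and marker lists moved by more than 1.5 times only where they were 8 or fewer. Single related genes were followed through the alternatives only where named here, with a few others chosen by hand, and not over the whole lists. Among the genes followed, 4 values changed direction when only the most abundant row was used, and the cause was not tested. They were Zeb2 at 6 h against 0 h (-0.37), Rsu1 at 1 h against 0 h (0.024), which was not called, and Flna at 6 h against 0 h (-0.074) and against 1 h (-0.32). The last of these was called lower with that row (limma adjusted p = 0.0159). Having 3 libraries per time and an unknown depth limits what can be said of members under 1 FPKM.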
